A study of Mus musculus with 7 samples.

Results

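The genes described here encode enzymes of the tricarboxylic acid (TCA) cycle outside complex II, together with pyruvate carboxylase, in mouse duodenum with or without Ppara in the intestinal epithelium. The members are the rows of the deposited table whose symbol is Pcx, Cs, Idh3a, Ogdh, Dlst, Suclg1, Sucla2, Fh1 or Mdh2. All 9 were found among the 14795 genes of the table, and all 9 were among the 13399 genes with a value above 1 CPM in at least 3 libraries. CPM, the unit of the table, stands for read counts scaled to a library size that the authors had adjusted.

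RNA was compared between 3 Ppara lox/lox duodena, the controls (genotype Ppar-alpha loxP/loxP), and 4 Ppara I-KO duodena, in which a Villin-Cre transgene recombines the same floxed Ppara alleles. Both groups carry the floxed alleles and are labelled as C57BL/6. According to the study's methods the mice were male and ate a high-fat diet (HFD), and the controls were littermates. The sample labels name no diet, and neither they nor the methods give an age that is tied to these libraries. According to the labels, the mice were left without food for 6 h from noon on the last day and were then refed for 6 h until midnight, whereas the study's methods give a fast before killing as the general procedure. Villin-Cre acts in the intestinal epithelium, whereas whole duodena also hold muscle, stromal and immune cells in which Ppara stays intact. The 10 enterocyte markers of a fixed list were present in every library, with sums between 56804 and 74298 CPM, whereas the 2 usable of 5 Brunner gland and stomach markers summed to at most 3.27 CPM. The labels number the libraries as biological replicates, and no pooling is mentioned for them.

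The TCA cycle runs in the mitochondrial matrix, where citrate synthase joins acetyl-CoA to oxaloacetate and the following steps release carbon dioxide and regenerate oxaloacetate. Most of the acetyl-CoA comes from pyruvate through the pyruvate dehydrogenase complex or from fatty acid oxidation. Pyruvate carboxylase instead turns pyruvate straight into oxaloacetate, which refills the cycle and is also the first step from pyruvate towards glucose. The paper describes glutamate, taken from the lumen or made from glutamine, as the fuel that enterocytes prefer to oxidise. PPARα is a nuclear receptor that is known for inducing genes of fatty acid oxidation when it binds fatty acids.

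The promoter of Pcx is shown first, because Pcx was the member that differed most between the genotypes. RefSeq (GRCm38.p6) lists 2 start sites for Pcx, and the 250 bases before each of them are given from 5′ to 3′ on the strand of the gene. The first lies upstream of the whole gene, at chr19:4510222-4510471, and the second inside it, at chr19:4594069-4594318. Suclg1 (chr6:73248255-73248504) and Sucla2 (chr14:73552536-73552785), which encode partner subunits of succinyl-CoA synthetase, are shown with them because the same motif was found in their windows. By the GENCODE bounds given below, the Sucla2 window lies inside the gene, and the Suclg1 window reaches past the start of the gene. Capitals mark bases that match a searched motif.
Pcx, first start: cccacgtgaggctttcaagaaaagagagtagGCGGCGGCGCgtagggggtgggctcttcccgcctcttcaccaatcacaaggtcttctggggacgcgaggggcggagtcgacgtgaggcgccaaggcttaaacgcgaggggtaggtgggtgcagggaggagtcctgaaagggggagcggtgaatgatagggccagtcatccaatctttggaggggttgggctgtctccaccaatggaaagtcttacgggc
Pcx, second start: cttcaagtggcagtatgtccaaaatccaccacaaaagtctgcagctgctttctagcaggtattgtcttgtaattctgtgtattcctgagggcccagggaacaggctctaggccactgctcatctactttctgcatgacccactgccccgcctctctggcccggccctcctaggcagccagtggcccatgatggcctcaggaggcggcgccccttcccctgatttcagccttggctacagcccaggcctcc
Suclg1: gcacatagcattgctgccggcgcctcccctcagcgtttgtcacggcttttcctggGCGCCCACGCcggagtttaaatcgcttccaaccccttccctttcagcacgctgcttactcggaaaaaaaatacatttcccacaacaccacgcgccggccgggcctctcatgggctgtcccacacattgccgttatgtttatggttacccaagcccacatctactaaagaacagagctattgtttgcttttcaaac
Sucla2: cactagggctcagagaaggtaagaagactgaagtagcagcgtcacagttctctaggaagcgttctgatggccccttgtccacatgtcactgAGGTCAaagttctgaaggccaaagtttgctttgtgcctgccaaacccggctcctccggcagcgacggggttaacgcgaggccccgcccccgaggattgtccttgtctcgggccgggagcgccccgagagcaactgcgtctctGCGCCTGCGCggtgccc

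The capitals in the first Pcx window, in Suclg1 and at the end of Sucla2 are the NRF1 motif, which is GCGC, then 3 bases of any kind, then CGC, and in Pcx it reads so on the opposite strand. NRF1 is a transcription factor of nuclear genes for mitochondrial proteins. Of the 8 members with a RefSeq window, 3 held this motif in a window, as did 10.7% of all 27025 genes (9.52% of all 32851 windows). The nuclear receptor core motif AGGTCA stood in Sucla2, shown above in capitals, and in Fh1, and in 15.8% of all genes (14.0% of windows). A direct repeat of AGGTCA with 1 base between the copies, the form that PPARα binds with RXR, was in none of these members and in 0.0407% of all genes (0.0335% of windows). The motif TCAAGGTCA of the estrogen-related receptors, which contains AGGTCA, was also in none of them and in 0.422% of all genes (0.387% of windows), and CCGGAAG of the ETS family was in none and in 7.83% (6.91%). Both strands were searched for each motif. A match describes letters and not a bound site, and no match says only that these letters are missing from the window. Idh3a was not matched.

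Per length of the transcript, malate dehydrogenase 2 was the most abundant member and pyruvate carboxylase the least. The CPM was divided by the length of the principal transcript of GENCODE M21 in kb, which is a level and not a difference. Mdh2 had a mean of 1259 CPM per kb in lox/lox duodena, Cs had 406, Ogdh 296, Dlst 205, Suclg1 134 and Sucla2 96.6. Idh3a had 67.2 CPM per kb, Fh1 42.2 and Pcx 24.3. The order was the same in I-KO duodena, and no neighbours in it overlapped in any library of either genotype. The closest were Pcx and Fh1, since the highest Pcx value of 35.7 CPM per kb lay just under the lowest Fh1 value of 36.5. With all annotated exons as the length, Cs and Ogdh, Suclg1 and Sucla2, and Idh3a and Fh1 exchanged places, so the order within these pairs depends on the gene model.

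**Figure D1:**
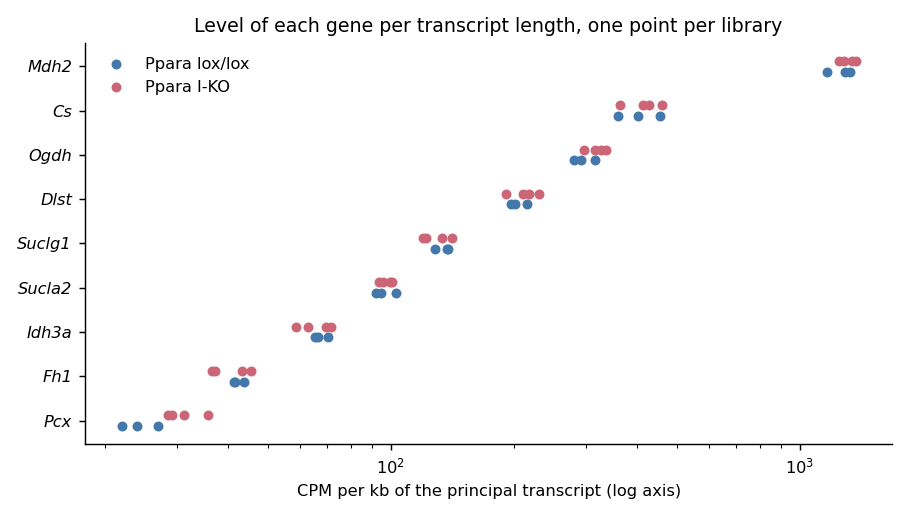
Level of the 9 members in CPM per kb of the principal transcript (log axis), with 1 point for each library of the 3 Ppara lox/lox and 4 Ppara I-KO duodena. The members keep their order from Mdh2 (mean of 1259 in lox/lox) down to Pcx (24.3), and only Pcx has its I-KO points all to the right of its lox/lox points.

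None of the 9 members passed an adjusted p of 0.05 in limma on log2(CPM + 1), with adjustment by the Benjamini-Hochberg method over all 13399 genes. At this threshold 0.0224% of all genes were higher in the I-KO duodena and 0.00746% were lower. At an unadjusted p of 0.05, 1 of the 9 was higher, Pcx, against 2.32% of all genes, and 0 were lower, against 2.42%. Pcx was also the only member whose I-KO libraries all lay above the lox/lox libraries, where 2.91% of all genes did so and 3.28% lay entirely below. The members had a median log2 fold change of 0.04, beside 0.0017 for all genes tested. Each member was tested again by an exact two-sided permutation test, whose smallest possible p with 3 against 4 libraries is 0.0286.

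Pcx encodes pyruvate carboxylase and lies on chromosome 19 of GRCm38 from 4510472 to 4621752 on the plus strand. The 3 controls, lox/lox replicates 1 to 3, measured 109.7, 89.2 and 97.2 CPM, and I-KO replicates 1 to 4 measured 126.7, 115.8, 144.9 and 118.4 CPM. The highest control stayed below the lowest I-KO library, by 109.7 against 115.8 CPM. The mean of the controls was 98.7 ± 10.3 CPM (SD, n = 3), and that of the I-KO libraries was 126.5 ± 13.2 CPM (SD, n = 4), a ratio of 1.28. The log2 fold change was 0.35 (standard error 0.11, 95% interval 0.11 to 0.60), with an unadjusted p of 0.0102 and an adjusted p of 0.845 from limma. The exact permutation test gave p = 0.0286, the smallest it can give with 3 against 4, and by limma p it ranked 161 among all genes tested. The groups were thus apart in these mice, although the I-KO libraries alone ranged from 115.8 to 144.9 CPM. The difference did not pass the adjustment over all genes.

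The size of the Pcx difference depended on single libraries. Its log2 fold change was 0.28 without lox/lox replicate 2, the lowest control, where the unadjusted p rose to 0.0511, and 0.43 without lox/lox replicate 1, the highest control. Over all 16 alternatives its adjusted p from limma lay between 0.506 and 0.9997. Of the I-KO libraries, replicates 1 and 3 had the most Pcx, and they also had the highest sum of Apoa1 and Apoa4, abundant apolipoprotein genes of enterocytes, at 50338 and 48113 CPM. This sum was 42424, 34520 and 39228 CPM in lox/lox replicates 1 to 3, and 34213 and 36236 CPM in I-KO replicates 2 and 4. The other 8 enterocyte markers summed to 25383, 22675 and 24270 CPM in lox/lox and to 23158, 22591, 26185 and 24306 CPM in I-KO libraries. Their sum was highest in I-KO replicate 3. It was lowest in I-KO replicate 2 and lox/lox replicate 2, which were also lowest for Apoa1 and Apoa4. I-KO replicate 1, highest for Apoa1 and Apoa4, departed from this, since its sum of the other 8 lay below lox/lox replicates 1 and 3. Single markers of these 8 went different ways. Sis, the brush border sucrase-isomaltase, was lowest of all in I-KO replicate 1, at 1735 CPM, where Vil1 had 3099 CPM. Vil1 lay above all controls in every I-KO library (unadjusted p = 0.110 from limma). Fabp1 lay below all controls in every I-KO library (unadjusted p = 0.00621, adjusted p = 0.822 from limma). Alpi, Slc5a1 and Vil1 were highest of all in I-KO replicate 3, at 3719, 4627 and 3383 CPM. The part of epithelial composition in the Pcx difference was not tested. In whole tissue, fewer cells of a type and less RNA per cell cannot be told apart.

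Pancreatic RNA was also unevenly distributed. The acinar markers without Zg16, a gene that goblet cells of the duodenum express, summed to 434.8 CPM in I-KO replicate 1 and 100.0 CPM in lox/lox replicate 2, and to between 27.5 and 45.6 CPM in the other 5 libraries. Without I-KO replicate 1 the log2 fold change of Pcx was 0.35 (unadjusted p = 0.0205 from limma), and the part of pancreatic RNA in single values was not tested. Of the adipocyte markers, Retn and Plin1 were under 1 CPM in every library, and the summed list lay between 146.3 and 151.5 CPM in lox/lox and between 130.01 and 167.6 CPM in I-KO duodena. Reads of Lrfn4, which overlaps Pcx on the opposite strand, could enter its value only if strand was not used in counting.

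**Figure D2:**
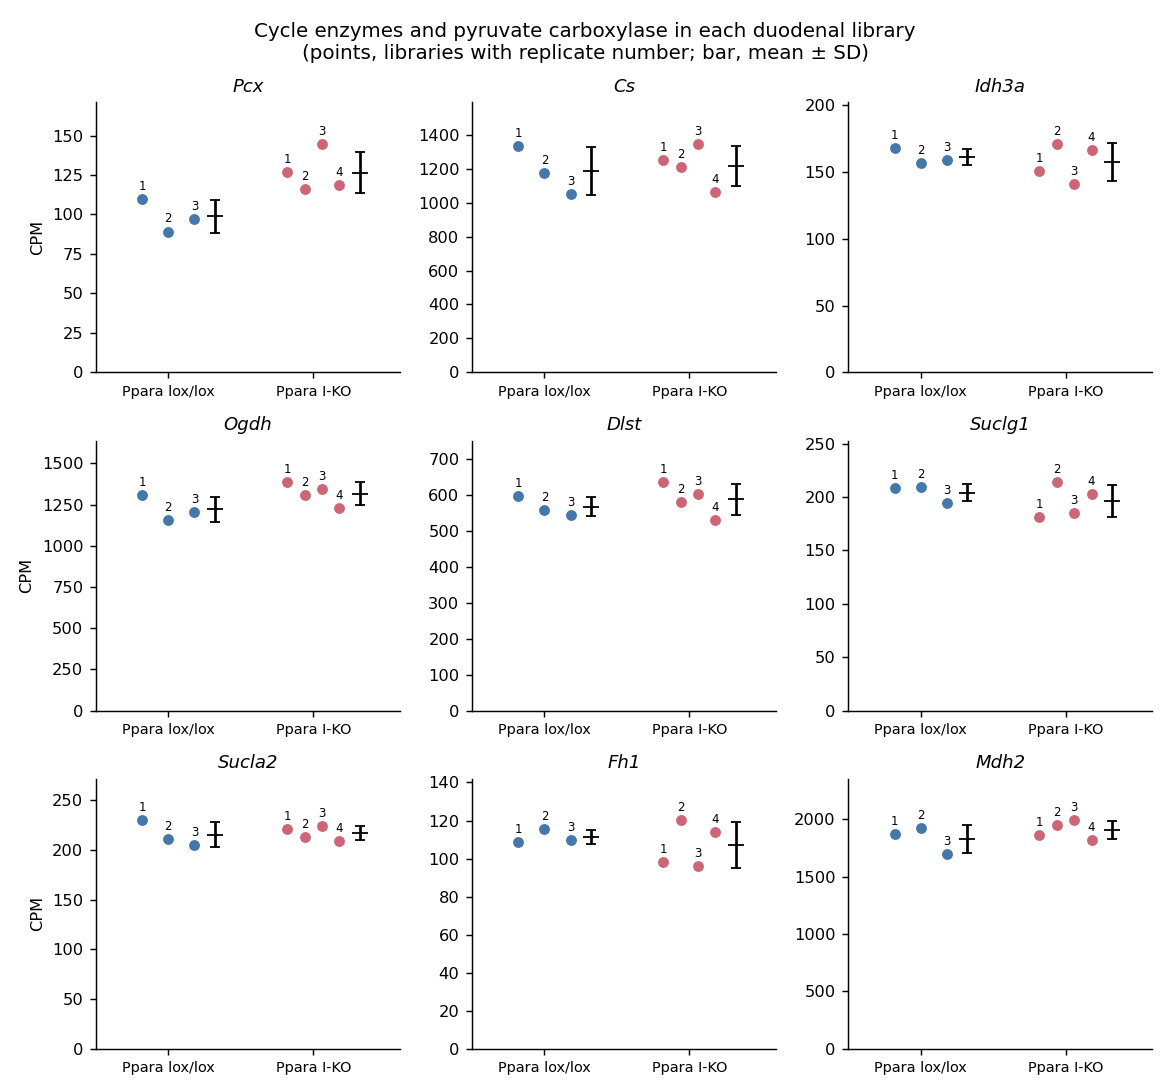
CPM of the 9 members in each duodenal library, with the replicate number above each point and the mean ± SD beside each group (n = 3 and n = 4), on axes that start at 0. Pcx is the only panel in which the groups do not overlap, at 89.2 to 109.7 against 115.8 to 144.9 CPM.

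Cs encodes citrate synthase, which opens the cycle (chromosome 10 of GRCm38, 128337734 to 128362479). It had 1333, 1174 and 1053 CPM in the lox/lox libraries and 1250.3, 1209, 1349 and 1061 CPM in the I-KO libraries. Both groups spanned nearly the same range, and the log2 fold change was 0.04 (95% interval -0.22 to 0.29, exact permutation p = 0.657). The CPM ratio of Pcx to Cs, the enzymes that make and use oxaloacetate at the entry of the cycle, was 0.0823, 0.0759 and 0.0924 in lox/lox and 0.101, 0.0958, 0.107 and 0.112 in I-KO libraries. The groups did not overlap in this ratio, with an exact permutation p of 0.0286. The adjusted p over the 6 ratios computed was 0.171, and these ratios were picked once the data had been seen. The ratio of Pcx to Mdh2 was 0.0540 ± 0.00680 (SD, n = 3) and 0.0662 ± 0.00560 (SD, n = 4), with p = 0.0571 in the exact permutation test.

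Idh3a encodes the catalytic subunit of the NAD-dependent isocitrate dehydrogenase, the first step that releases carbon dioxide (chromosome 9, 54586334 to 54604661). Its values were 168.3, 156.6 and 159.3 CPM in lox/lox and 150.6, 171.4, 141.3 and 166.7 CPM in I-KO libraries. I-KO replicates 1 and 3 were the lowest of all libraries and I-KO replicate 2 the highest, so the controls lay inside the range of the I-KO group. The log2 fold change was -0.04 (95% interval -0.25 to 0.17, exact permutation p = 0.686).

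Ogdh and Dlst encode the first and second components of the 2-oxoglutarate dehydrogenase complex, the next step to release carbon dioxide. Ogdh (chromosome 11, 6291633 to 6356642) had 1306, 1156 and 1204 CPM in lox/lox and 1389, 1307, 1346 and 1227 CPM in I-KO libraries. The groups met at the edge, since lox/lox replicate 1 lay just below I-KO replicate 2 and above I-KO replicate 4. Its log2 fold change of 0.11 (95% interval -0.08 to 0.30, exact permutation p = 0.143) was the next largest after Pcx. Dlst (chromosome 12, 85110833 to 85134845) had 596.0, 557.7 and 544.3 CPM in lox/lox and 635.5, 580.3, 600.7 and 530.2 CPM in I-KO libraries. The I-KO group held both its highest and its lowest value, and the log2 fold change was 0.05 (95% interval -0.15 to 0.25, exact permutation p = 0.514). The CPM ratio of Ogdh to Dlst was 2.16 ± 0.0751 (SD, n = 3) in lox/lox and 2.25 ± 0.0527 (SD, n = 4) in I-KO duodena (exact permutation p = 0.114).

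Suclg1 and Sucla2 encode the α subunit of succinyl-CoA synthetase and the β subunit of its ATP-forming version, the step that yields a high-energy phosphate. Suclg1 (chromosome 6, 73248382 to 73276911) had 208.1, 209.8 and 194.8 CPM in lox/lox and 181.8, 214.4, 185.5 and 203.1 CPM in I-KO libraries. As for Idh3a, I-KO replicates 1 and 3 were the lowest and I-KO replicate 2 the highest of all, and the log2 fold change was -0.06 (95% interval -0.26 to 0.14, exact permutation p = 0.429). Sucla2 (chromosome 14, 73525319 to 73596142) had 230.0, 210.9 and 205.2 CPM in lox/lox and 221.5, 213.0, 224.1 and 208.7 CPM in I-KO libraries. All I-KO values lay within the range of the controls, with a log2 fold change of 0.01 (95% interval -0.17 to 0.19, exact permutation p = 0.886). The ratio of Suclg1 to Sucla2 was 0.949 ± 0.0449 (SD, n = 3) against 0.907 ± 0.0966 (SD, n = 4), and the ratio of Sucla2 to Suclg2, the β subunit of the GTP-forming version, was 2.08 ± 0.123 (SD, n = 3) against 2.21 ± 0.276 (SD, n = 4). The exact permutation tests gave p = 0.457 and p = 0.571.

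Fh1 and Mdh2 encode fumarate hydratase and mitochondrial malate dehydrogenase, which close the cycle. Fh1 (chromosome 1, 175600374 to 175625635, minus strand) had 108.9, 115.4 and 109.6 CPM in lox/lox and 98.0, 120.2, 96.2 and 114.0 CPM in I-KO libraries. Its I-KO values fell into a low pair, replicates 1 and 3, and a high pair, replicates 2 and 4, with the controls between the lowest and the highest. The log2 fold change was -0.06 (95% interval -0.29 to 0.17, exact permutation p = 0.486). Mdh2 (chromosome 5, 135778480 to 135790398) had 1874, 1930 and 1695 CPM in lox/lox and 1864, 1955, 1995 and 1819 CPM in I-KO libraries. Only lox/lox replicate 3 stood below all others, and the log2 fold change was 0.06 (95% interval -0.13 to 0.25, exact permutation p = 0.400).

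Among the 8 cycle members, 5 had a higher and 3 a lower mean log2 value in Ppara I-KO, from -0.06 for Fh1 to 0.11 for Ogdh, with a median of 0.02. The smallest adjusted p from limma among them was 0.954. Their 95% intervals together reached from -0.29 to 0.30 on the log2 scale, that is from 0.819 to 1.23 times the control, so a change beyond these bounds lay outside the interval of every one of them. The smallest value of any member stood on 1817 reads, for which counting alone gives an error of 2.35%, and the coefficient of variation within a group was between 3.18% and 11.8%. Read numbers were taken from the step of the low values in each library. Genes that overlap members include the small RNA Gm23182 in Cs on the same strand and Kmo in Fh1 on the opposite strand.

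**Figure D3:**
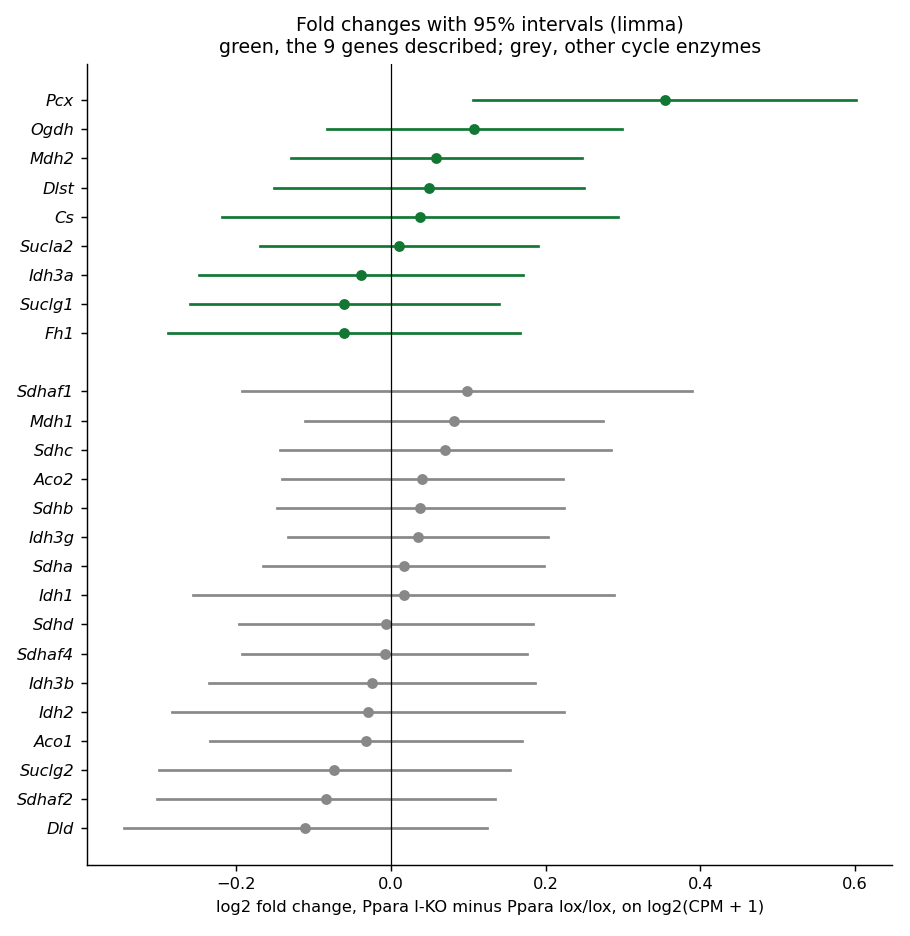
Log2 fold change of Ppara I-KO against Ppara lox/lox on log2(CPM + 1), with 95% intervals from limma, for the 9 members (green) and 16 other cycle enzymes (grey). The interval of Pcx (0.11 to 0.60) is the only one that does not include 0.

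Within the I-KO group the members varied in opposite directions. I-KO replicates 1 and 3 had the lowest Idh3a, Suclg1 and Fh1 of all 7 libraries, and the highest Ogdh, Dlst and Pcx. For Fh1 the deviations from the gene mean on log2(CPM + 1) were -0.15 and -0.17 in these libraries, and 0.15 and 0.07 in I-KO replicates 2 and 4. For Dlst they were 0.14 and 0.06 in replicates 1 and 3, and 0.01 and -0.12 in replicates 2 and 4. Cell type markers differed between the same libraries. The summed markers of proliferating progenitors were lowest in I-KO replicates 1 and 3, at 468.7 and 396.3 CPM, and lay between 510.5 and 580.9 CPM in the other 5 libraries. Paneth cell markers summed to 1521 and 1041 CPM there and to between 1761 and 3049.8 CPM elsewhere. Of the progenitor markers, Mki67, Pcna, Top2a, Ccnb1 and Cdk1 had their lowest values in I-KO replicates 1 and 3. Mcm2 and Mcm5 were lowest in I-KO replicate 3. In I-KO replicate 1, Mcm2 (31.4 CPM) lay above lox/lox replicates 1 and 3, and Mcm5 (30.8 CPM) above lox/lox replicate 1. Ccnd1 lay below all controls in every I-KO library (unadjusted p = 0.00543, adjusted p = 0.791 from limma), and its highest I-KO value, 44.8 CPM, was in replicate 1. The part of cell composition in these differences was not tested.

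**Figure D4:**
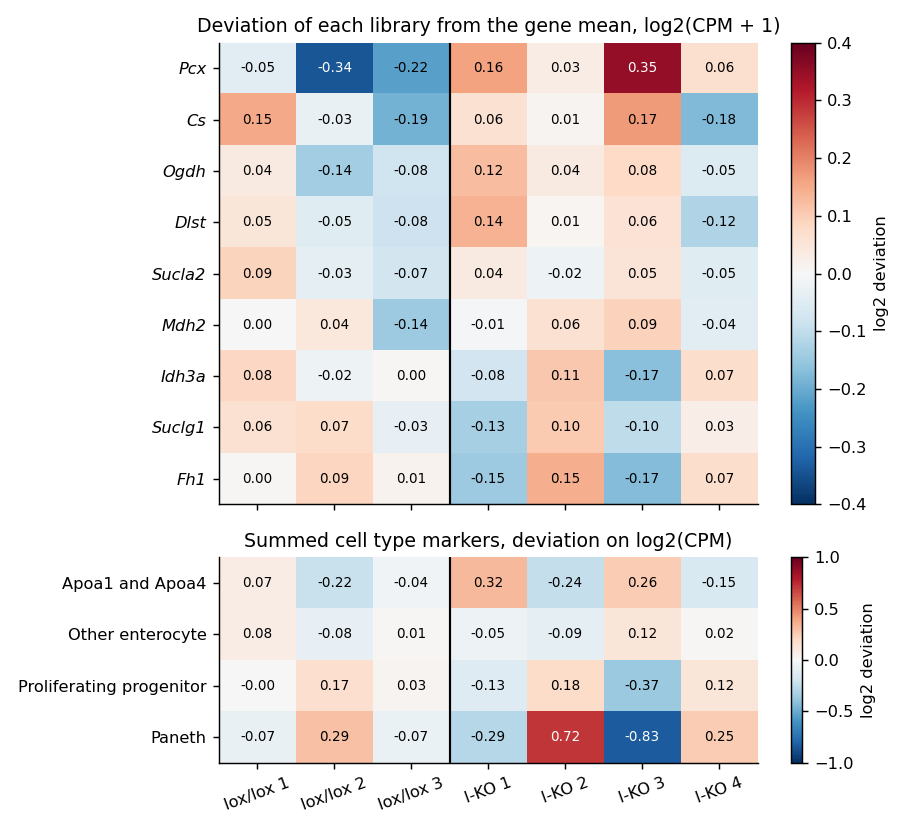
Deviation of each library from the mean of each member on log2(CPM + 1) (upper panel), and the same for the sum of Apoa1 and Apoa4 and for summed markers of other enterocyte genes, proliferating progenitors and Paneth cells on log2(CPM) (lower panel), with the lox/lox libraries left of the line. Fh1 reads -0.15 and -0.17 in I-KO replicates 1 and 3 and 0.15 and 0.07 in replicates 2 and 4, and Dlst runs the other way.

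The rest of the cycle also gave small differences in both directions. Of 16 other genes of cycle enzymes, their subunits and the assembly factors of succinate dehydrogenase, all 16 were tested, with 8 higher and 8 lower. Of these, 0 passed an adjusted p and 0 an unadjusted p of 0.05 in limma, and 0 had groups that did not overlap. Their median log2 fold change was 0.01 and the range ran from -0.11 for Dld to 0.10 for Sdhaf1. Dld, the third component shared by the 2-oxoglutarate and pyruvate dehydrogenase complexes, had 171.3, 169.4 and 171.2 CPM in lox/lox and 135.8, 172.9, 151.4 and 175.3 CPM in I-KO libraries. Its lowest values were again those of I-KO replicates 1 and 3. Mdh1, the cytosolic malate dehydrogenase, had a log2 fold change of 0.08 (95% fold interval 0.926 to 1.21).

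Of 13 genes that carry pyruvate into the matrix or control its conversion to acetyl-CoA, 5 were higher and 8 lower, and their median was -0.03 on the log2 scale. At an adjusted p of 0.05 in limma 0 passed. At an unadjusted p of 0.05 in limma, Pdk2 was higher, against 2.32% of all genes, and Pdk3 and Pdk4 were lower, against 2.42%. These encode pyruvate dehydrogenase kinases, which switch the complex off. Of the 13 genes, 2 had I-KO libraries entirely above the controls, against 2.91% of all genes, and 1 entirely below, against 3.28%. Pdk2 had 94.7, 80.1 and 84.6 CPM in lox/lox and 109.9, 97.7, 108.6 and 110.9 CPM in I-KO libraries, without overlap (log2 fold change 0.30, unadjusted p = 0.00872, adjusted p = 0.830 from limma). Pdk3 had 26.5, 31.5 and 23.97 CPM against 22.6, 23.1, 21.4 and 20.7 CPM, also without overlap (log2 fold change -0.30, unadjusted p = 0.0188, adjusted p = 0.954 from limma). Pdk4, a known target of PPARα, had 29.8, 21.0 and 59.3 CPM against 13.03, 11.6, 15.5 and 27.9 CPM, and its groups overlapped through I-KO replicate 4 and lox/lox replicate 2 (log2 fold change -1.02, unadjusted p = 0.0210, adjusted p = 0.954 from limma). The unadjusted p of Pdk3 was 0.0960 when lox/lox replicate 2 was left out. That of Pdk4 was 0.0863 when lox/lox replicate 3 was left out, with a log2 fold change of -0.61, and 0.0545 and 0.0522 when I-KO replicate 1 or 2 was.

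The mitochondrial pyruvate carrier subunit Mpc1 had 75.9, 76.8 and 75.0 CPM in lox/lox and 80.6, 77.0, 87.9 and 83.5 CPM in I-KO libraries. Its groups did not overlap, by 76.83 against 76.99 CPM at the closest, and its log2 fold change of 0.11 had an unadjusted p of 0.185 in limma. Pdha1, the catalytic subunit of pyruvate dehydrogenase and so the alternative fate of pyruvate, had 235.0, 235.2 and 219.8 CPM against 208.9, 244.7, 208.9 and 238.3 CPM. The CPM ratio of Pcx to Pdha1 was 0.429 ± 0.0452 (SD, n = 3) in lox/lox and 0.568 ± 0.102 (SD, n = 4) in I-KO duodena (exact permutation p = 0.0857).

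**Figure D5:**
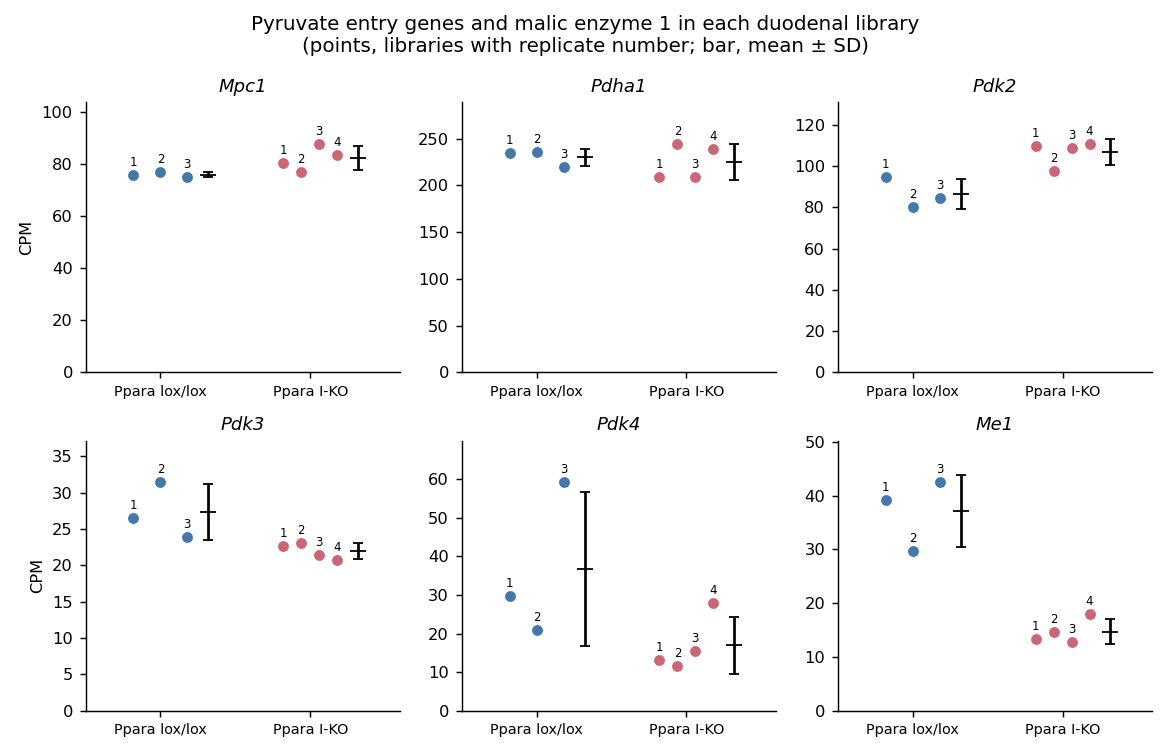
CPM of Mpc1, Pdha1, Pdk2, Pdk3, Pdk4 and Me1 in each duodenal library, with replicate numbers and the mean ± SD of each group (n = 3 and n = 4). The I-KO points of Pdk2 lie above all lox/lox points, and those of Pdk3 and Me1 below all of them, whereas Pdk4 overlaps through I-KO replicate 4 at 27.9 CPM.

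Me1 encodes cytosolic malic enzyme, which turns malate that has left the mitochondria into pyruvate, and it fell in Ppara I-KO. It had 39.3, 29.7 and 42.6 CPM in lox/lox and 13.3, 14.7, 12.8 and 18.0 CPM in I-KO libraries, and no library of one group reached the other. Its log2 fold change was -1.28 (unadjusted p = 1.36e-05, adjusted p = 0.0456 from limma), and the adjusted p lay between 0.0191 and 0.396 over the alternatives. The call was lost when a control was left out, either replicate 1 (adjusted p = 0.226) or replicate 3 (0.243), and also when I-KO replicate 1 (0.218), 2 (0.145) or 3 (0.132) was omitted. The mitochondrial Me2 had a log2 fold change of 0.08, and Me3 was below the filter on low values. Of 10 tested genes for the mitochondrial carriers of cycle intermediates and the cytosolic enzymes that use them, 8 were higher and 2 lower, with a median of 0.02. Me1 was the only one past an adjusted or an unadjusted p of 0.05 in limma, where 0.00746% and 2.42% of all genes were lower. The citrate carrier Slc25a1 had a log2 fold change of 0.15, with 146.4, 140.2 and 118.9 CPM against 160.8, 163.9, 150.0 and 127.5 CPM. Without lox/lox replicate 3 it was 0.06, and without I-KO replicate 4 it was 0.23 (unadjusted p = 0.0568 from limma). Pck1, which takes oxaloacetate on towards glucose, had 38.8, 26.7 and 55.4 CPM against 40.3, 28.2, 53.8 and 91.9 CPM, with a log2 fold change of 0.33 (unadjusted p = 0.397 from limma). With a control left out this was 0.07 (replicate 2) or 0.58 (replicate 3), and with an I-KO library left out it was 0.03 (replicate 4) or 0.59 (replicate 2).

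Of 12 tested genes by which glutamate, ketone bodies and propionyl-CoA enter the cycle, 8 were higher and 4 lower, with a median of 0.05 on the log2 scale, and 0 passed an adjusted or an unadjusted p of 0.05 in limma. Glud1, glutamate dehydrogenase, had 215.3, 209.0 and 195.7 CPM in lox/lox and 190.3, 253.2, 239.5 and 317.4 CPM in I-KO libraries. Its I-KO values spanned both sides of the controls (log2 fold change 0.25, unadjusted p = 0.135 from limma). Single libraries moved it, to 0.37 without I-KO replicate 1 (unadjusted p = 0.0143, adjusted p = 0.981 from limma) and to 0.13 without I-KO replicate 4. With sample quality weights the unadjusted p of Glud1 was 0.0462. Mut, methylmalonyl-CoA mutase, had a log2 fold change of 0.16 and Oxct1, which activates ketone bodies, of 0.19. Got2, the mitochondrial aspartate aminotransferase, had 100.2, 101.6 and 105.8 CPM against 91.1, 100.1, 92.1 and 99.99 CPM. Its I-KO libraries thus lay entirely below the controls, as did those of 3.28% of all genes. The log2 fold change of Got2, -0.10, had an unadjusted p of 0.242 in limma.

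RNA of 18 other genes related to mitochondrial content was also read, whereas the amount of mitochondria itself was not measured. Of these, for the outer membrane channels and import machinery, matrix chaperones and the factors Tfam, Nrf1, Esrra and Ppargc1a, 4 were higher and 14 lower, and their median was -0.06 on the log2 scale. In limma 0 passed an adjusted p of 0.05. At an unadjusted p of 0.05, 1 was lower, Hspd1, the matrix chaperonin, against 2.42% of all genes. It had 389.0, 427.4 and 373.4 CPM in lox/lox and 326.7, 383.2, 263.2 and 332.2 CPM in I-KO libraries (log2 fold change -0.29, unadjusted p = 0.0470 from limma). The unadjusted p of Hspd1 lay above 0.05 when any library but I-KO replicate 2 was left out, up to 0.152 when this was lox/lox replicate 2, and its log2 fold change was -0.19 when I-KO replicate 3 was omitted. Cycs, cytochrome c, had a log2 fold change of -0.13, Tomm40 of -0.11 and Vdac3 of -0.09. Esrra, the estrogen-related receptor α that is known for driving cycle genes, had 314.4, 287.1 and 267.1 CPM against 340.5, 280.0, 319.9 and 286.4 CPM.

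Targets of PPARα are given as context for the deletion, from a list that was made with earlier results of these data known. Among 22 tested targets, 20 had a lower mean without intestinal Ppara. Of the 22, 15 passed an unadjusted p of 0.05 from limma in that direction, against 2.42% of all genes. The I-KO libraries lay entirely below the controls for 13, against 3.28% of all genes. Their median was -0.51 on the log2 scale. Me1, which is also on this list, was the only target past an adjusted p of 0.05 in limma. Cpt1a, which admits fatty acids to mitochondria, had 96.4, 103.6 and 121.5 CPM in lox/lox and 57.7, 63.1, 64.0 and 72.8 CPM in I-KO libraries (log2 fold change -0.72). The acylcarnitine carrier Slc25a20 had a log2 fold change of -0.83. Cyp4a10, a fatty acid ω-hydroxylase, had 1.78, 2.57 and 4.87 CPM in lox/lox and 0.29, 0.24, 0.21 and 0.58 CPM in I-KO libraries, a ratio of means of 0.107. On the log2(CPM + 1) scale, which compresses such low values, its fold change was -1.55, and it was -2.03 with a pseudocount of 0.5. Ppara itself had 53.4, 49.3 and 63.2 CPM in lox/lox and 33.1, 40.6, 47.5 and 69.9 CPM in I-KO libraries, and the highest value of all was that of the library labelled I-KO replicate 4 (log2 fold change -0.25, exact permutation p = 0.486). Without I-KO replicate 4 it was -0.45 (unadjusted p = 0.0152, adjusted p = 0.700 from limma), without I-KO replicate 1 it was -0.10, and without lox/lox replicate 3 it was -0.16. The gene total also counts reads from outside the floxed part and from cells without Cre, and it does not check the deletion.

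The mean profile of the 9 members over the 7 libraries, each member centred on its own mean, was flat, with a standard deviation of 0.05 on the log2 scale. It was highest in I-KO replicate 2 (0.05) and lox/lox replicate 1 (0.05) and lowest in lox/lox replicate 3 (-0.09). By the root mean square difference to this profile, the 5 nearest of 13382 genes were Nit1, Afg3l2, Clptm1, Wbp4 and Mesdc1, at 0.02 to 0.03. Nit1, the nearest, had 62.3, 60.4 and 58.9 CPM in lox/lox and 63.8, 63.6, 63.9 and 62.5 CPM in I-KO libraries. With so flat a profile and 7 libraries this likeness is a description only.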

How the data were processed

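Total duodenal RNA was sequenced from polyA-selected, strand-specific libraries (TruSeq stranded mRNA) as 100 base single reads. The submitters' processing notes name FastQC 0.11.2, TopHat2 2.0.13, Picard 1.80, HTSeq 0.6.1, edgeR and the mm10 build. The authors deposited 1 signal table of normalized CPM, scaled to an adjusted library size and rounded to 2 decimals, for 14795 genes. A last row without a gene name was dropped, and 0 columns were left unmatched to samples.

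Columns summed to between 969589 and 1098618 CPM. Low values lay on multiples of 0.0393 to 0.0530 CPM, the worth of 1 read, all within the rounding of 0.005, which gives 20740121 to 25889488 reads on listed genes. Counts were used only for the counting error. Count tests, planned first, were left out under a limit of 95% of these values at whole read numbers to within 0.1. Lox/lox replicates 2 and 3 had 84.2% and 81.0%, and I-KO replicates 2 and 4 had 79.2% and 84.7%. In these libraries 0.1 of a read is less than the rounding, so the limit does not tell rounding from values that are not whole reads.

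The 13399 genes above 1 CPM in 3 or more libraries were compared on log2(CPM + 1) by limma (version 3.58.1, R version 4.3.3), and genotype was the single term of the model. The fold change on this scale understates that of low genes. The script was tested on simulated data. P-values are two-sided, and those of limma set each difference against the spread between these mice, moderated over all genes. The alternatives were other scaling, pseudocount 0.5, no filter, a replicate block, an intensity trend, sample quality weights and each library left out. Coordinates, lengths and overlaps come from GENCODE M21 (GRCm38), and promoter windows from RefSeq (GRCm38.p6). Sdhaf4, Defa30 and Jchain were matched through older symbols. Python 3.11.15 was used for tables and figures (pandas 2.3.3, numpy 2.4.6, matplotlib 3.10.9).

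The members and lists were chosen with earlier results of these data known. Named are the 9 members, Ppara, up to 4 genes of each list with the smallest p and genes past the adjusted threshold. The 5 nearest profiles are named as well. Pdha1, Suclg2, Esrra, Me3, the single enterocyte, progenitor and adipocyte markers and the overlapping genes were chosen after their values were seen. Splitting the enterocyte list into Apoa1 with Apoa4 and the rest, and taking Zg16 out of the acinar list, were steps added to the fixed lists. Marker lists not named in the results (goblet, enteroendocrine, tuft, smooth muscle, lymphocyte, B cell) had 0 genes past an adjusted p of 0.05 and 0 past an unadjusted p of 0.05 in limma. The sum of the 3 tuft markers was 37.2 to 41.4 CPM in lox/lox and 32.2 to 36.9 CPM in I-KO libraries, without overlap.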

Additional observations from a re-analysis of the deposited data

How the results depend on the processing

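Pcx was higher in Ppara I-KO under all 14 planned and 2 added alternatives, with a log2 fold change of 0.28 to 0.43 with 1 library left out and of 0.25 to 0.38 otherwise. None of the 9 members passed an adjusted p of 0.05 in limma under any of the 16. The number past an unadjusted p of 0.05 was 1, with a range of 0 to 1 when 1 library was left out (0 without lox/lox replicate 2), and it was 0 when both I-KO replicates 1 and 3, the highest for Pcx, were left out. The number of members without overlap was 1, with a range of 1 to 2, and the added gene was Ogdh, without lox/lox replicate 1 or I-KO replicate 4. Leaving out a library can only keep or raise this number. The shares over all genes given above are for 3 against 4 libraries and do not apply to it.

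Of the 144 member values under the alternatives 15 changed sign, none of them past the threshold, and the cause was not tested. With 1 library left out Cs ranged from -0.045 to 0.13, Idh3a from -0.080 to 0.012 and Sucla2 from -0.023 to 0.059. Sucla2 was -0.027 with column totals and -0.0081 with the enterocyte sum as a covariate (a sum carried by Apoa1 and Apoa4 that also holds the PPARα target Fabp1), and Idh3a was 0.012 with sample quality weights. Leaving out both I-KO replicates 1 and 3, which were picked after their values were seen as extremes of these genes and so had to move them the other way, gave -0.061 for Cs, 0.067 for Idh3a, -0.028 for Dlst, 0.032 for Suclg1, -0.029 for Sucla2, 0.073 for Fh1 and 0.029 for Dld. Pcx, Ogdh and Mdh2 never changed sign.

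The deviations of same-numbered libraries correlated by -0.01, 0.18 and -0.01. So few values show no clear pairing by replicate number, and they cannot exclude one. Only lox/lox replicate 2 correlated best with its own number. With the replicate block the log2 difference of Pcx was 0.38 (adjusted p = 0.628), and the same value without I-KO replicate 4, which has no partner. The block gave 1016 genes at an unadjusted p of 0.05 in limma, where the fit without it gave 635, and sample quality weights gave 1002. At an adjusted p the numbers were 3 with the block, 4 without it and 12 with the weights. The call of Me1 was lost with column totals, pseudocount 0.5, the block, either of the added fits and without lox/lox replicates 1 or 3 or I-KO replicates 1, 2 or 3, with adjusted p of up to 0.396. Column totals shifted the median of all genes to -0.03. Count tests with edgeR and DESeq2 on recovered reads were not run, as described above. With the block Ppara was -0.45 (unadjusted p = 0.00639, adjusted p = 0.628) and Slc25a1 0.23 (unadjusted p = 0.0436). With 1 library left out Dld ranged from -0.16 to -0.04, Mdh1 from 0.03 to 0.12 and Cycs from -0.22 to -0.04. Counting error and the spread between libraries are given with the members.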
